A study of Mus musculus with 6 samples.

Results

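The genes described here make, sense and move cholesterol and make and modify fatty acids. They were chosen by symbol, 37 symbols for 36 genes because Sc4mol is the older symbol of Msmo1, and a gene was tested where a probe carrying its symbol in the platform annotation stood above the negative control beads, at a detection p under 0.01, in 3 or more of the 6 arrays. This held for 28 of the 36 genes, out of 8529 genes tested in all: 13 of sterol synthesis, 9 of fatty acid metabolism, 4 of sterol sensing and 2 of sterol transport. The other 8 members, Acat2, Hmgcs1, Idi1, Fdft1, Sc5d, Srebf1, Acaca and Fasn, were named by no probe of the annotation and were not analysed here.

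The cells were mouse embryonic stem (ES) cells of a 129P2 background, grown with serum. Their parental line was a reporter line in which GFPd2 reports Rex1 (Zfp42), and both groups carried that reporter. They had received either a Prdm14 expression construct (overexpression) or a control vector (control), and 3 arrays were hybridised per group. Replicates were successive passages, with neither lines nor clones told apart in the labels. The p-values here thus rest on variation among passages, and an effect of Prdm14 cannot be told apart from a difference between the cell populations that received each vector. As bulk RNA was measured, a smaller number of cells expressing a gene and less RNA per cell cannot be told apart either.

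Cholesterol is built from acetyl-CoA through mevalonate and isoprenoid units to squalene, which is closed to lanosterol and trimmed to cholesterol in a series of oxidations, reductions and demethylations. Fatty acids are built from the same acetyl-CoA, then elongated, desaturated and activated by coupling to coenzyme A. The SREBP transcription factors connect both routes: when membrane sterol is low, SCAP escorts SREBP to the Golgi for cleavage, whereas INSIG proteins retain the complex in the endoplasmic reticulum when sterol is plentiful. SREBP acts at sterol regulatory elements, usually together with the CCAAT-binding factor NF-Y, and ES cells, which divide quickly, use both routes to build membrane.

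Of the 28 members, 3 changed between the groups, beside 4.64% of all 8529 tested genes at the same threshold. Osbpl3 and Acsf2 were higher and Mvk was lower in Prdm14 overexpressing cells. Acsf2 and Mvk each passed the detection filter only through the 3 arrays of the group where they were high. Mvk was not called in the authors' own normalised values. The promoters of the 3 called genes are shown to set the sequence beside the expression values, together with that of Cyp51, a later sterol enzyme that did not pass the test. Each line gives 250 bases before to 50 bases after the start of the gene, 5′ to 3′ along the gene, from RefSeq (assembly GRCm38.p6), and capitals mark CCAAT or its reverse complement ATTGG.
Mvk, chr5:114444019-114444318, plus strand: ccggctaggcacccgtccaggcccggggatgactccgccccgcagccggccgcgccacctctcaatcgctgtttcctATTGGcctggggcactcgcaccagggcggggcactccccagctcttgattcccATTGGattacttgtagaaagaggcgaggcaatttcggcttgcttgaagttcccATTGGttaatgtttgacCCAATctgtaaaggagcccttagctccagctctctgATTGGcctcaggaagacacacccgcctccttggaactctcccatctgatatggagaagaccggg
Osbpl3, chr6:50456121-50456420, minus strand: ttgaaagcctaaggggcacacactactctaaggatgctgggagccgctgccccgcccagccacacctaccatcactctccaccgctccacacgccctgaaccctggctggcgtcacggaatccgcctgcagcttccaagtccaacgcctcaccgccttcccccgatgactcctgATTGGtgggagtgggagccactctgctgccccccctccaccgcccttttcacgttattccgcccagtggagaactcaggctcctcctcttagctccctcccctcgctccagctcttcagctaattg
Acsf2, chr11:94601737-94602036, minus strand: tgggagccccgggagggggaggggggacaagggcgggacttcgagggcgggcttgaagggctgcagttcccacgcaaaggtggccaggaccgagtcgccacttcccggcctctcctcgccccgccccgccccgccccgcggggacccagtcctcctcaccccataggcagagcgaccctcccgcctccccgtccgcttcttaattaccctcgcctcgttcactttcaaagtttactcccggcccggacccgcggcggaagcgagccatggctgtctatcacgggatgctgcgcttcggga
Cyp51, chr5:4104648-4104947, minus strand: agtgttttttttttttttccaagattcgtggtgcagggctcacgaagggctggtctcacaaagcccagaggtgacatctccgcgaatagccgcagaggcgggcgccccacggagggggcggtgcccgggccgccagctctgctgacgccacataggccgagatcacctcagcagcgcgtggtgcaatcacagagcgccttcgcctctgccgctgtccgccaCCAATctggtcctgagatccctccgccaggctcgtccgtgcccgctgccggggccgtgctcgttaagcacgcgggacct
The window of Mvk held 5 CCAAT motifs, those of Osbpl3 and Cyp51 held 1 each, and that of Acsf2 held 0. Its G and C content was 58.7% for Mvk, 62.0% for Osbpl3, 64.7% for Cyp51 and 69.3% for Acsf2.

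RefSeq promoter windows were found for 22 of the 28 tested members. CCAAT, searched on both strands, was present in 18 of these 22, namely in 11 of 11 sterol synthesis members, 3 of 6 fatty acid members and 4 of the other 5, against 44.3% of the 6969 tested genes with a window. Of the fatty acid members, Acly, Elovl1 and Elovl5 held it and Acsf2, Elovl6 and Fads2 did not. The sterol regulatory element, searched as TCACNCCAC on both strands, occurred in 0 of the 22 members and in 1.33% of all tested genes with a window. Only this form was searched, so elements with other letters were not counted, and the count does not show that the members lack one. The E-box CACGTG, which is its own reverse complement, occurred in 5 members (Dhcr7, Hsd17b7, Elovl5, Insig1 and Scap) and in 12.4% of all. By their letters, CCAAT and CACGTG cannot overlap. A gene with several start sites counted as holding a motif where any of its windows did, which concerns 5 of the 22 members. The motif content is a description of the windows, and binding was not measured.

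Raised Prdm14 was seen on every overexpression array: its brighter probe gave signals of 14900, 10800 and 11000 against 801, 673 and 855 in control cells, 14.5-fold on the normalised scale. Each array detected 14078 to 14769 of 45281 probes. Probes detected on no array were brighter on the overexpression arrays, at median signals of 73.3 to 81.2 against 59.6 to 62.8 on the control arrays. Raw signals are therefore given here beside normalised log2 levels, which were background corrected and set to a common distribution, and all differences are overexpression minus control on the normalised log2 scale. A gene was represented by its brightest tested probe and called at a limma adjusted p under 0.01. Of 8 ES cell markers 8 were tested and 0 were called by limma, against 4.64% of all genes. At an unadjusted p under 0.05 there were 3, against 25% of all genes, and the median difference was 0.14, from -0.12 to 0.34. The groups did not overlap for 4 markers with overexpression higher and for 1 with it lower, against 14.7% and 15.3% of all genes. Nanog had the lowest adjusted p, with 0.34 ± 0.09 (adjusted p = 0.0467). Pou5f1 gave signals of 11300 to 15300 in overexpressing and 10700 to 13600 in control cells. Of 8 markers of primitive endoderm 1 was tested, Sox7, with 0.38 ± 0.16 (SE, adjusted p = 0.183). Of 8 fibroblast markers, which would mark feeder cells, 2 were tested. The smooth muscle actin gene Acta2 was called lower, with signals of 84.8, 72.9 and 87.1 against 250, 167 and 313. It was above background on 0 of 3 overexpression and 3 of 3 control arrays. Thy1 differed by -0.15 ± 0.13 (adjusted p = 0.531). The other 6, the collagen genes Col1a1, Col1a2 and Col3a1 among them, were named by no probe of the annotation. The part of Acta2-expressing cells in the results that follow was not tested.

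Among the 28 tested members, 3 passed the threshold, 2 higher and 1 lower, against a background of 4.64% of all 8529 genes (396 genes). Of these 3 members only Osbpl3 was detected in both groups. Acsf2 and Mvk entered the count only through the group where they were high. The same 3 members passed at an adjusted p under 0.05, where 10.8% of all genes passed, and 6 of 28 members had an unadjusted p under 0.05, which 25% of all genes (2128 of 8529) had. The median difference of the members was -0.02, and that of all genes was -0.0016. Without Osbpl3 and Acsf2, a transport gene and an acyl-CoA synthetase, 1 of 26 members was called. By probe, 4 of the 42 tested probes of members passed (both of Osbpl3 and those of Acsf2 and Mvk), against 3.5% of all 14604 tested probes.

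**Figure D1:**
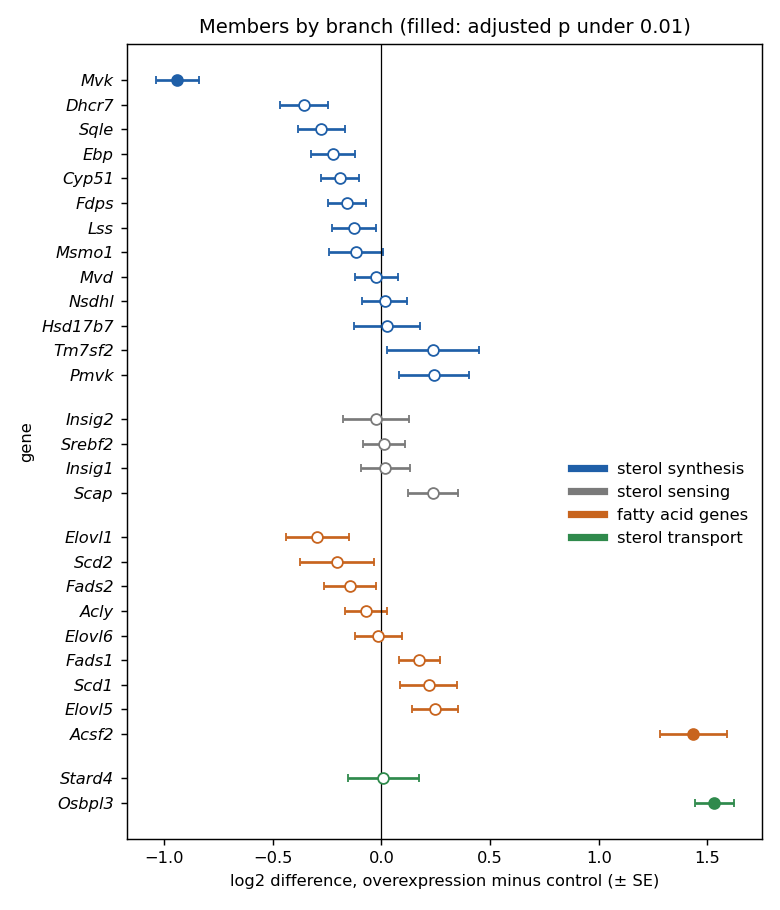
Difference of each tested member between the groups (horizontal axis, normalised log2, overexpression minus control) ± SE from limma, 3 arrays per group, grouped and coloured by role; filled points mark an adjusted p under 0.01. Osbpl3 (1.53), Acsf2 (1.44) and Mvk (-0.94) lie apart from the other members, which all fall between -0.36 and 0.25.

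Osbpl3 encodes an oxysterol-binding protein related protein that moves lipids at membrane contact sites. On the overexpression arrays its signals were 900, 665 and 721, and on the control arrays 240, 241 and 258. The normalised levels were 9.35, 9.32 and 9.29 against 7.84, 7.84 and 7.70. Each overexpression array lay above each control array, and the spread within a group was small beside the distance between the groups. The difference was 1.53 ± 0.09 (SE, n = 3 per group; adjusted p = 5.76e-05), or 2.89-fold. Its other probe gave signals of 525, 431 and 419 against 159, 173 and 169, a difference of 1.44 ± 0.12, so that both probes moved the same way by nearly the same amount. Leaving out each array in turn gave 1.48 to 1.56. Stard4, the other transport member, which carries cholesterol between membranes, differed by 0.01 ± 0.16 (adjusted p = 0.986; 95% interval -0.36 to 0.38). Its levels of 8.33, 8.57 and 8.86 in overexpressing cells overlapped with 8.52, 8.84 and 8.37 in control cells.

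Acsf2 encodes a mitochondrial member of the acyl-CoA synthetase family, which activates fatty acids of medium length. With Prdm14 overexpression its signals were 206, 170 and 143, with the control vector 78.7, 73.1 and 85.2. All 3 overexpression arrays were above background and higher than the control arrays, none of which was above background. The measured difference was 1.44 ± 0.15 (SE, n = 3 per group; adjusted p = 0.000844). As the control level has only an upper bound, the gene was at least 1.34-fold higher on the normalised scale used here. This bound sets the overexpression mean against, for each control array, the higher of the lowest detected value and the probe's own value. It takes no account of sampling error and does not carry over to other processing. The measured difference depended on the background correction. It was 0.83 without one and 0.40 (adjusted p = 0.00370) in the authors' normalised values, and the gene remained called in both.

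Mvk encodes mevalonate kinase, which phosphorylates mevalonate on the way to isoprenoids. The overexpression arrays gave signals of 110, 101 and 104 and the control arrays 114, 117 and 138. The probe was above background on 0 of 3 overexpression arrays and on 3 of 3 control arrays. The raw signals of the groups lay close together without overlapping, while the lowest detected signal was 154, 126 and 137 on the overexpression arrays and 109, 112 and 128 on the control arrays. The normalised levels were 5.29, 5.50 and 5.47 against 6.29, 6.33 and 6.45. The difference was -0.94 ± 0.10 (SE, n = 3 per group; adjusted p = 0.000844). With the overexpression level only bounded, the gene was at least 1.16-fold lower on this normalised scale, sampling error aside. The raw signals give no such bound, because the lowest detected signals of the overexpression arrays overlapped with the control signals of Mvk. The size of the difference depended on the processing. It was -0.52 without a background correction, where Mvk remained called (adjusted p = 0.00195), and -0.24 in the authors' normalised values, where it was not called (adjusted p = 0.0354). Its only tested probe carries the accession of a cDNA clone, AK009261. The part of the brighter background of the overexpression arrays in this result was not tested.

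**Figure D2:**
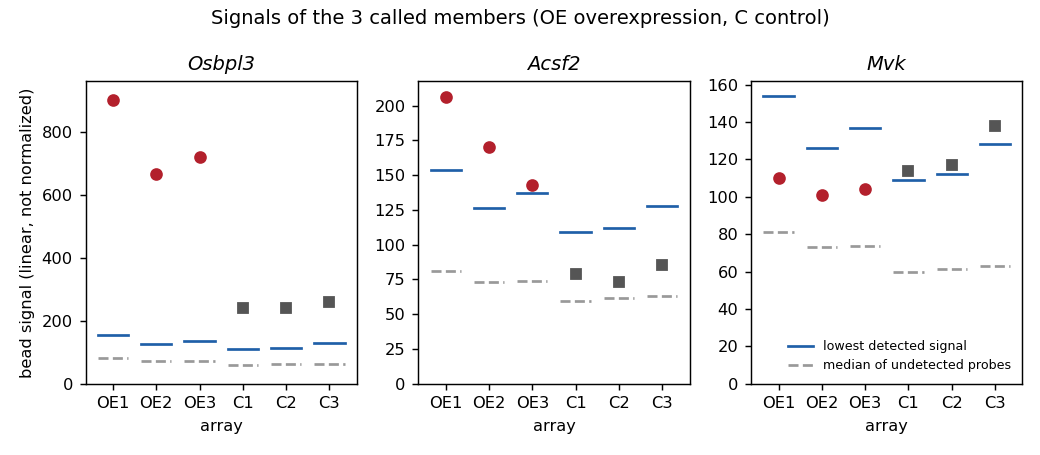
Raw signal (vertical axis, linear bead intensity) of the 3 called members on each of the 3 overexpression (OE, red) and 3 control (C, dark squares) arrays, with the lowest detected signal (solid line) and the median signal of undetected probes (dashed line) of each array. Osbpl3 separates widely (665 to 900 against 240 to 258), Acsf2 lies at 143 to 206 against 73.1 to 85.2, and Mvk at 101 to 110 against 114 to 138.

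The remaining steps of the mevalonate route were not called. In all, 4 of the 7 members of this route were tested. Pmvk, which adds the next phosphate after Mvk, had levels of 8.40, 8.29 and 8.80 in overexpressing and 8.09, 8.16 and 8.52 in control cells. Its difference was 0.24 ± 0.16 (adjusted p = 0.402), the highest of the route, and the groups overlapped. Mvd, which decarboxylates the product to isopentenyl diphosphate, differed by -0.02 ± 0.10 (adjusted p = 0.934). Fdps makes farnesyl diphosphate, the branch point to sterols, dolichol and protein prenylation. Its levels were 11.99, 12.02 and 12.10 against 12.19, 12.24 and 12.14, lower on each overexpression array, but the difference of -0.16 ± 0.09 did not pass (adjusted p = 0.318). Pmvk and Mvk, which act one after the other, thus had values of opposite sign, of which only that of Mvk passed the test.

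From squalene to cholesterol, 9 of 11 members were tested and 0 were called, against 4.64% of all genes. The median difference of the 9 members was -0.13, from -0.36 to 0.24. At an unadjusted p under 0.05 there were 2 of 9, against 25% of all genes. Sqle, the squalene epoxidase that catalyses a rate-limiting oxidation, had levels of 11.22, 11.16 and 10.95 in overexpressing and 11.45, 11.43 and 11.27 in control cells. The groups did not overlap, and the difference was -0.28 ± 0.11 (adjusted p = 0.145; 95% interval -0.52 to -0.03). Its other probe gave -0.30 ± 0.11. Dhcr7, the reductase of the last step to cholesterol, had the most negative value of the sterol members after that of Mvk. Its levels were 7.17, 7.06 and 6.81 against 7.42, 7.37 and 7.31, again without overlap, and the difference was -0.36 ± 0.11 (adjusted p = 0.0822; 95% interval -0.61 to -0.10).

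Lss, Cyp51 and Ebp also had no overlap between the groups and did not pass the test. Lss, which closes squalene epoxide to lanosterol, differed by -0.13 ± 0.10 (adjusted p = 0.505), and its highest overexpression level of 9.196 and lowest control level of 9.198 almost met. Cyp51, the lanosterol demethylase whose promoter is printed above, had levels of 9.14, 9.24 and 9.11 against 9.38, 9.36 and 9.32, and a difference of -0.19 ± 0.09 (adjusted p = 0.224). Ebp, the isomerase that moves the ring double bond, differed by -0.22 ± 0.10 (adjusted p = 0.212). Tm7sf2, a sterol reductase, was the most positive of these steps at 0.24 ± 0.21 (adjusted p = 0.555). Its levels of 6.42, 6.63 and 5.75 overlapped with 6.20, 5.83 and 6.05, and it was above background on 2 overexpression arrays and 1 control array. Msmo1 (-0.12 ± 0.12), Nsdhl (0.01 ± 0.10) and Hsd17b7 (0.03 ± 0.15), which remove the methyl groups at carbon 4, had overlapping groups.

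**Figure D3:**
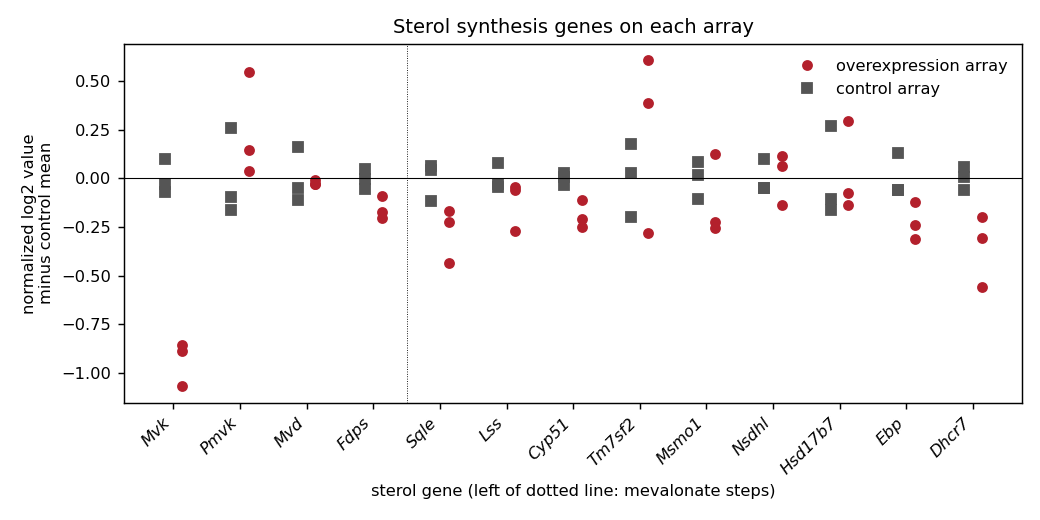
Normalised log2 level of each tested sterol synthesis member on each array, as the deviation from the mean of its control arrays, with 3 overexpression (red circles) and 3 control arrays (dark squares) per gene. For Mvk, Fdps, Sqle, Lss, Cyp51, Ebp and Dhcr7 the overexpression arrays lie below the control arrays, and of these only Mvk passed the test.

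Taking the sterol route as a whole, 1 of 13 members was called, lower, and 0 higher, against 4.64% of all genes called in either direction. The median difference was -0.13, with 9 values negative and 4 positive. Of all 8529 genes, 4289 had a negative value. The groups did not overlap, with overexpression lower, for 7 of 13 members, against 15.3% of all genes, and with overexpression higher for 0 of 13, against 14.7%. These members share arrays and cannot be counted as independent. Mvk, the called member and among the 7, passed the detection filter only through the control arrays, where it was high. The count rested on the scaling. When arrays were scaled to a common median in place of quantile normalisation, which moved the median of all genes from -0.0016 to 0.11, it was 1 of 13 lower and 1 of 13 higher, against 7.26% and 24.7% of all genes. With median scaling 6 of the 13 sterol values were negative. Relative to the median of all genes, the sterol median was -0.12 with quantile normalisation and -0.11 with median scaling.

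Of the 4 tested sterol sensing members, 0 were called by limma, against 4.64% of all genes. At an unadjusted p under 0.05 there were 0, against 25% of all genes. The differences of the 4 members ran from -0.02 to 0.24. Srebf2, the SREBP that mainly drives cholesterol genes, had levels of 8.84, 8.85 and 8.64 in overexpressing and 8.81, 8.75 and 8.74 in control cells. The groups overlapped, with a difference of 0.01 ± 0.10 (adjusted p = 0.960; 95% interval -0.20 to 0.23). A second probe of Srebf2 read -0.26 ± 0.09 (probe adjusted p = 0.126) without overlap, so its probes differed in sign. Scap, the escort protein, had the highest value of the group at 0.24 ± 0.12 (adjusted p = 0.242), with levels of 7.57, 7.73 and 7.87 against 7.40, 7.64 and 7.40 that overlapped. Insig1, itself a sterol-responsive gene, had levels of 8.22, 8.53 and 8.25 against 8.22, 8.39 and 8.33. Its difference was 0.02 ± 0.11 (adjusted p = 0.957; 95% interval -0.24 to 0.27), and its other probes read -0.15 and 0.22. Insig2 had the lowest value, -0.02 ± 0.15 (adjusted p = 0.958), with levels of 9.04, 8.63 and 9.06 against 8.93, 8.72 and 9.15, and a second probe at 0.18.

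On the fatty acid side, 1 of 9 members was called, Acsf2, against 4.64% of all genes. Without it 0 of 8 were called, with 1 at an unadjusted p under 0.05, against 25% of all genes. For 3 of 9 members the groups did not overlap with overexpression higher, against 14.7% of all genes. With overexpression lower this held for 0 of 9, against 15.3%. Acsf2, among these 3, passed the detection filter only through the overexpression arrays. With median scaling the counts were also 3 and 0, against 24.7% and 7.26% of all genes. Acly, which supplies cytosolic acetyl-CoA to both routes, was the only tested member of fatty acid synthesis proper. It had levels of 13.11, 12.97 and 13.03 in overexpressing and 13.13, 13.00 and 13.19 in control cells. The groups overlapped, and the difference was -0.07 ± 0.10 (adjusted p = 0.730; 95% interval -0.29 to 0.15).

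All 7 members of desaturation and elongation were tested and 0 were called by limma, against 4.64% of all genes. Only Elovl5, 1 of 7, had an unadjusted p under 0.05, against 25% of all genes. Elovl5, which elongates polyunsaturated fatty acids, had the highest value. Its levels were 12.40, 12.33 and 12.44 against 12.23, 11.96 and 12.24, higher on each overexpression array, and the difference was 0.25 ± 0.11 (adjusted p = 0.193; 95% interval 0.00 to 0.49). Fads1, the delta-5 desaturase of the same pathway, also had no overlap, with levels of 11.53, 11.53 and 11.68 against 11.44, 11.32 and 11.45 and a difference of 0.17 ± 0.09 (adjusted p = 0.298). Fads2, the delta-6 desaturase of that pathway, had a value of the other sign, -0.14 ± 0.12 (adjusted p = 0.528), with overlapping groups.

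Scd1 and Scd2, which introduce the double bond of oleate, had values of opposite sign and neither passed. Scd1 had levels of 8.99, 8.82 and 9.08 in overexpressing and 8.49, 8.84 and 8.91 in control cells, a difference of 0.22 ± 0.13 (adjusted p = 0.359). Scd2 had levels of 7.77, 7.60 and 7.40 against 7.82, 7.45 and 8.11, a difference of -0.20 ± 0.17 (adjusted p = 0.528). The groups overlapped for both genes, and the difference between them was not tested. Elovl6, which elongates palmitate, differed by -0.01 ± 0.11 (adjusted p = 0.967).

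Elovl1, which elongates very long saturated fatty acids, had the lowest value of the fatty acid members. The levels of its brightest probe were 7.94, 7.96 and 8.34 against 8.45, 8.15 and 8.53, with overlap, and the difference was -0.29 ± 0.14 (adjusted p = 0.250). All 4 of its probes read below 0. The dimmer ones gave -0.25, -0.56 ± 0.12 (probe adjusted p = 0.0202) and -0.70 ± 0.18 (probe adjusted p = 0.0467), and none passed 0.01. Of the 9 members with several tested probes, Insig1, Insig2 and Srebf2 had probes of differing sign, and the remaining 6 had the same sign on each probe.

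**Figure D4:**
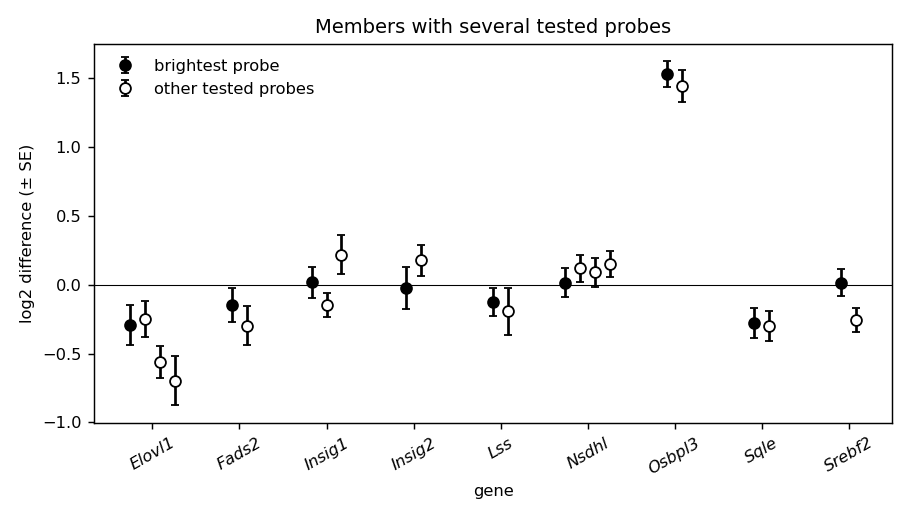
Difference (normalised log2, overexpression minus control) of every tested probe of the members that have several, ± SE from limma, 3 arrays per group; filled points are the brightest probe of a gene. Both Osbpl3 probes lie at 1.44 and 1.53, the 4 Elovl1 probes run from -0.70 to -0.25, and the probes of Insig1, Insig2 and Srebf2 lie on both sides of 0.

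Compared side by side, the sterol members had a median difference of -0.13 and the fatty acid members of -0.01, a gap between medians of -0.11. Relative to the mean of the control arrays, the mean level of the sterol members was -0.15, -0.07 and -0.21 on the overexpression arrays and 0.03, -0.01 and -0.03 on the control arrays, a difference of -0.14 with an SD of 0.07 among overexpression and 0.03 among control arrays. The mean of the fatty acid members was 0.17, 0.16 and 0.12 against 0.03, -0.11 and 0.08, a difference of 0.15 with SDs of 0.03 and 0.10. Both branch means thus separated the groups, in opposite directions. The separation rested on Mvk and Acsf2, each of which passed the detection filter only through the 3 arrays of the group where it was high and entered the means with values below background in the other group. Without Mvk the sterol deviations were -0.08, -0.01 and -0.15 on the overexpression arrays and 0.04, -0.0037 and -0.04 on the control arrays, which overlapped, and without Acsf2 the fatty acid difference was -0.01. Between the branch means the gap was -0.29 with all tested members, with SDs of 0.06 among overexpression and 0.11 among control arrays. Without Mvk and Acsf2 it was -0.07, with SDs of 0.09 and 0.12, smaller than the spread between arrays. Neither this gap nor that between medians carries a p, since the members were chosen with results known and share arrays.

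**Figure D5:**
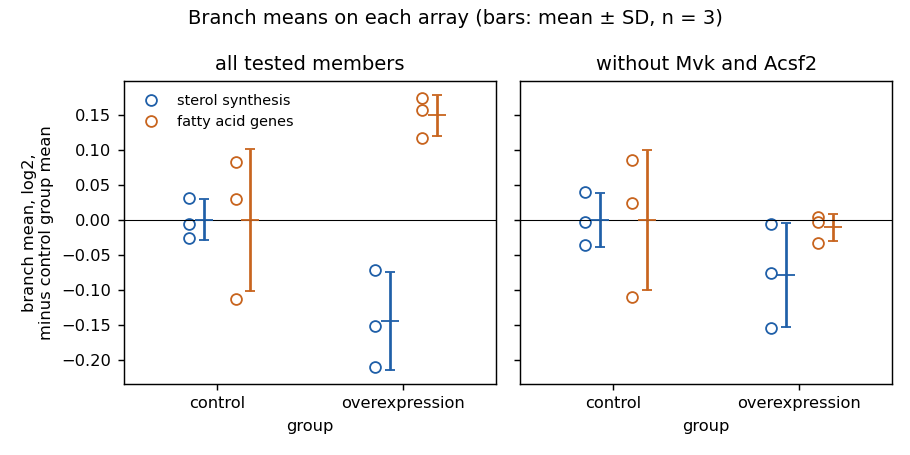
Mean normalised log2 level of the sterol synthesis members (blue) and fatty acid members (orange) on each array, minus the mean of the 3 control arrays; points are arrays and bars give mean ± SD of each group (n = 3). With all tested members the overexpression arrays lie at -0.14 for sterol and 0.15 for fatty acid genes, and without Mvk and Acsf2 at -0.08 and -0.01.

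Other genes of lipid metabolism were taken from 7 lists that hold 113 further genes, of which 61 were tested. Of these 1 was called higher and 4 lower, against 4.64% of all genes, and their median difference was -0.02. No gene of the list of other sterol synthesis enzymes, 6 genes, was named by a probe. In the list of sterol uptake, efflux and sensing, 7 of 19 genes were tested and only Apoe, the lipoprotein component that carries cholesterol between cells, changed. Its signals were 861, 682 and 815 in overexpressing and 1460, 1340 and 1560 in control cells, a clear separation, and it fell by 1.21 ± 0.10 (adjusted p = 0.000286). The largest other values were -0.25 for Npc1, the lysosomal cholesterol exporter, and 0.22 for Erlin1, which takes part in SREBP regulation. Of the other oxysterol-binding and START proteins, 9 of 16 were tested and 0 were called by limma. At an unadjusted p under 0.05 there was 1, against 25% of all genes. Stard7 (-0.31 ± 0.11, adjusted p = 0.117) and Osbpl10 (-0.25 ± 0.12, adjusted p = 0.214) had the largest values, both opposite in sign to Osbpl3.

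Among the acyl-CoA synthetases other than Acsf2, 9 of 12 were tested. Acsl5, a long-chain acyl-CoA synthetase, fell: its signals were 823, 613 and 599 against 1310, 1280 and 1360, without overlap, a difference of -1.31 ± 0.10 (adjusted p = 0.000177). Acsl4, which prefers arachidonate, read -0.54 ± 0.15 (adjusted p = 0.0493), and with the mean of its probes -0.30 (adjusted p = 0.213). With other processing or 1 array left out, the adjusted p of Acsl4 ran from 0.0193 to 0.213. Acsl6 read 0.49 ± 0.15 (adjusted p = 0.0824). Acsf2 and Acsl5, which catalyse the same type of reaction, thus changed in opposite directions. In the list of other fatty acid synthesis and modification genes, 15 of 25 were tested. Fads6, named for its similarity to fatty acid desaturases, was higher, with signals of 371, 270 and 334 against 150, 136 and 190, a difference of 0.98 ± 0.13 (adjusted p = 0.00199). Acss1, the mitochondrial acetyl-CoA synthetase, was lower, with signals of 343, 288 and 402 against 488, 425 and 514, a difference of -0.90 ± 0.16 (adjusted p = 0.00759). Both groups of signals were without overlap, and neither call was firm: Fads6 had an adjusted p of 0.0103 without overexpression array 1 and 0.0117 without control array 1, and Acss1 lost its call with median scaling (0.0101), without the detection filter (0.0106) and without any 1 of 5 of the 6 arrays (0.0150 to 0.0396), namely each array but overexpression array 3. The largest other values of this list were -0.26 for Hacd4, a dehydratase-like elongation gene, and 0.18 for Mlxipl, the glucose-responsive factor ChREBP.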

How the data were processed

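Total RNA was hybridised to Illumina Mouse WG-6 BeadChips. The authors deposited, for each probe and array, an average signal intensity on a linear scale, not normalised, with a detection p-value against negative control beads. The authors also deposited a table of log2-like values, made with lumi per the labels (version not given in the sources used here). It listed 15944 probes, and 4 of its 6 columns matched an array other than the one named (r with the matched array 0.941 to 0.967), 2 of them in the other group, so it served only as an alternative, with columns matched to arrays and under the deposited names.

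Signals were background corrected with normexp from the detection p-values (offset 16), quantile normalised and put on a log2 scale with limma 3.58.1 in R 4.3.3. The 14604 probes detected (p under 0.01) in 3 or more arrays were tested in a 2-group model with lmFit and eBayes. P-values were adjusted by Benjamini-Hochberg over all 8529 genes, or over all probes where a probe p is given. The precision is limited by the 3 arrays per group. Gene names came from the platform annotation with symbols updated through RefSeq. Of the tested probes 12679 had 1 symbol and 1925 had none or several. The fit was tested on simulated data.

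Between same-numbered arrays of both groups, deviations from the group means correlated at 0.121, 0.390 and 0.324. Differently numbered arrays were not set beside them, and the labels state no pairing. A fit with the replicate number as a block was an alternative. The others were median scaling, no background correction, no detection filter, the mean of a gene's probes, an adjusted p under 0.05 and leaving out each array. Array values were given for called members, the highest and lowest member of each role and a few set enzymes and regulators, and lists were represented by their called genes and at most 2 others with the largest differences. The levels of Fdps, Cyp51, Fads1 and Stard4 were added after their values were seen. Members and lists were chosen with earlier results of these data known.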

Additional observations from a re-analysis of the deposited data

How the results depend on the processing

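Of the 3 called members, Osbpl3 and Acsf2 kept their direction and call under median scaling, no background correction, no detection filter, the mean of a gene's probes, the replicate block, the matched normalised values and each left-out array. Mvk did so except with the matched normalised values, where 0 sterol members were called. Under the deposited sample names of that table, which put 2 columns into the other group, 0 genes were called in all, and so 0 members, 0 sterol and 0 fatty acid members. For all genes, median scaling turned the balance of 149 higher and 247 lower to 239 higher and 163 lower. An adjusted p under 0.05 called 917, leaving out 1 array called 154 to 258, and the replicate block called 556, 226 higher and 330 lower. The block left the 3 member calls in place and among the members and the list genes recomputed under each alternative changed no call but that of Agpat4. Prdm14, Eci2, Mmab and the markers other than Acta2 were not recomputed.

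Values that turned sign were all of genes not called. With median scaling Elovl6 read 0.10, Fads2 0.0080, Insig2 0.12, Mvd 0.12, Lss 0.0060 and Msmo1 0.0014. With the mean of a gene's probes Insig2 read 0.077, Srebf2 -0.12 and Npc1 0.0039. Leaving out 1 array gave -0.071 to 0.070 for Elovl6, -0.079 to 0.073 for Insig1, -0.13 to 0.12 for Insig2, -0.022 to 0.080 for Srebf2, -0.079 to 0.059 for Mvd, -0.11 to 0.16 for Hsd17b7, -0.036 to 0.089 for Nsdhl and -0.13 to 0.14 for Stard4. Without turning sign, uncalled values also moved widely, from 0.053 to 0.50 for Tm7sf2, 0.090 to 0.37 for Pmvk, 0.087 to 0.30 for Scd1, -0.37 to -0.042 for Scd2, -0.21 to -0.027 for Fads2, -0.24 to -0.046 for Msmo1, -0.17 to -0.053 for Lss and -0.12 to -0.025 for Acly. The gap between the sterol and fatty acid medians ran from -0.18 to -0.06 over the left-out arrays. Counts of groups without overlap under other scalings were added after the data were seen. Calls near background, those of Mvk and Acsf2, are limited by signal over background, and their causes were not tested.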

Other observations

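Of 19 genes of mitochondrial and peroxisomal beta-oxidation, 12 were tested and 0 passed an adjusted p of 0.01, against 4.64% of all genes. At an unadjusted p under 0.05 there were 5 of 12, against 25% of all genes. In this list 10 values were positive and 2 negative, beside 4240 and 4289 of all 8529 genes. The median difference was 0.11 against -0.0016 for all genes. Acadvl, the very-long-chain acyl-CoA dehydrogenase, had levels of 9.04, 8.85 and 9.28 in overexpressing and 8.54, 8.64 and 8.66 in control cells, a difference of 0.44 ± 0.12 (limma adjusted p = 0.0488). Slc25a20, the carnitine-acylcarnitine carrier of the inner mitochondrial membrane, had levels of 12.31, 12.57 and 12.54 against 12.03, 12.08 and 12.06, a difference of 0.41 ± 0.10 (adjusted p = 0.0331). It passed 0.01 with the mean of its probes (0.60, adjusted p = 0.00497) and with the matched normalised values (0.42, adjusted p = 0.00446). Eci2, an enoyl-CoA isomerase, read 0.41 ± 0.10 (adjusted p = 0.0353). The groups of these 3 genes did not overlap. In the whole list this held for 5 of 12 genes with overexpression higher and for 2 with it lower. The shares of all genes were 14.7% and 15.3%. The counts and the median were not repeated for this list under median scaling, which moved the median of all genes to 0.11.

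Of 16 genes of glycerolipid synthesis and storage, 9 were tested and 1 was called, against 4.64% of all genes. At an unadjusted p under 0.05 there were 5 of 9, against 25% of all genes. The median difference was -0.21 against -0.0016 for all genes. In this list 7 values were negative, beside 4289 of all 8529 genes. The median and this count were not repeated under median scaling, which moved the median of all genes to 0.11. Plin3, which coats lipid droplets, was lower, with levels of 9.12, 8.94 and 9.14 against 9.69, 9.90 and 10.03, a difference of -0.81 ± 0.12 (adjusted p = 0.00295). Its adjusted p was 0.0142 with median scaling and 0.0107 to 0.0128 when overexpression array 1, overexpression array 2, control array 2 or control array 3 was left out. Agpat4, an acyltransferase of phosphatidic acid synthesis, read -0.62 ± 0.16 (adjusted p = 0.0474), and with the replicate block it passed (adjusted p = 0.00518). Lpin1, the phosphatidate phosphatase, read -0.41 ± 0.12 (adjusted p = 0.0575) and was above background on 0 of 3 overexpression and 3 of 3 control arrays. Mmab, the gene next to Mvk that is read from the same promoter region and was looked up after the values of Mvk were seen, had probes at 0.21 ± 0.26 (probe adjusted p = 0.701) and 0.29 ± 0.26 (probe adjusted p = 0.555).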
